A study of Mus musculus with 16 samples.

Results

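The constitutive proteasome subunits are the genes whose proteins build the standard 26S proteasome, together with the PA28 activators that can take the place of its cap. They were chosen by gene symbol from a list of subunit names, and 34 of the 18167 genes in the deposited RNA-Seq table were members. All 34 names on the list were found. The members fell into 14 genes of the 20S core, 17 genes of the 19S cap and 3 genes of the PA28 activators (*Psme1*, *Psme2* and *Psme3*). The 20S core was split into an alpha ring and a beta ring of 7 genes each, and the 19S cap into 6 ATPases and 11 non-ATPases.

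The proteasome is the protease that degrades most proteins marked with ubiquitin. Its barrel-shaped core holds the catalytic sites inside rings of beta subunits and gates the entrance with rings of alpha subunits, while the cap recognises, unfolds and feeds in the substrate. PA28 is a ring-shaped activator that opens the core without using ATP, and in motor neurons and glia the proteasome is studied because ubiquitin-positive protein deposits are a hallmark of amyotrophic lateral sclerosis (ALS).

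Messenger RNA of spinal cord was sequenced from 16 mice, 1 library per mouse, in a study of an ALS model made with mutant human profilin1. All were transgenic mice on C57BL/6N. Mutant mice, of the line Tg(Prnp-PFN1*G118V)838Kiaei/J, carried human PFN1 with the G118V substitution, and the control mice, called wild-type in the study, were of the line Tg(Prnp-PFN1)850Kiaei/J and carried human PFN1 without it. In both strains a mouse prion promoter vector drove the transgene, so that no group was free of human profilin1 and each genotype was 1 transgenic line. The young mutant group (MY, 3 mice) and the young wild-type group (WY, 3 mice) were 50 days old, before symptoms. The old mutant group (MO, n = 5) was 175 to 245 days old and at end stage, when a mouse could no longer right itself in time, and the old wild-type group (WO, n = 5) was 190 to 294 days old. The labels give a batch number: all WY and MY mice were in batch 1, whereas WO and MO each had 3 mice in batch 1 and 2 in batch 2. Both WO mice of batch 2 were 294 days old, older than every MO mouse.

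Values are log2(1 + FPKM), where FPKM counts fragments scaled by transcript length and by the number of mapped fragments in the library, after the authors' correction for batch. The number of fragments behind a gene is unknown, so the spread between mice is the measure of precision here. A log2 fold change is the mean of the group named second minus the mean of the group named first. The median over all 18167 genes lay between 2.81 and 2.89 in the 16 mice.

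The labels describe the mice as male, and 1 library went against this. *Xist*, which is transcribed from the inactive X chromosome, had a value of 3.21 in MO5, while the highest of the other 15 mice was 0.37. *Ddx3y*, a gene of the Y chromosome, had a value of 1.95 in MO5 and of 4.06 or more elsewhere. The main counts and calls that rest on MO are therefore also given without MO5, and values are shown for each MO mouse. In WY1 some genes stood apart from the other WY mice: *Psme2* was at 5.24, against 4.81 and 4.88, and the cap gene *Psmd1* was at 5.56, against 5.99 and 5.86. The myelin gene *Mbp* was at 5.36 in WO4, while the other 15 mice were at 12.16 or above. The 5 *Hox* genes that mark position along the spinal cord were expressed in every mouse, with *Hoxd8* as the most abundant. Their summed FPKM was 84.5, 88.1, 88.8, 104 and 80.2 in MO and 95.7 to 110 in WO, so that 4 of 5 MO mice lay below every WO mouse, and it was 94.8 to 98.5 in MY and 94.2 to 102 in WY.

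All 34 members were well expressed. Averaged over the 16 mice their levels ran from 4.85 for *Psmd11* to 7.91 for *Psmc5*, with a median of 6.42, or an FPKM of 84.9. These levels lie between the 82.5 and the 98.5 percentile of all genes, so no member was near the low-value filter. FPKM is scaled by transcript length, which allows levels to be compared between genes. The highest levels after *Psmc5* were those of *Psmb7* (7.61), *Psmb1* (7.46) and *Psmb4* (7.38). The median level was 6.59 in the alpha ring, 6.99 in the beta ring, 6.55 in the ATPases and 6.03 in the non-ATPases. The PA28 genes were among the lowest, with *Psme1* at 4.86, *Psme2* at 4.98 and *Psme3* at 5.27. Within groups the SD of a member had a median of 0.10 (0.05 to 0.15), the same as the median of 0.10 over all genes, so that neighbours in the order of levels often differed by less than their spread.

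MY vs. MO compares mutant mice before symptoms with mutant mice at end stage, and WO vs. MO compares the genotypes in old mice. Both comparisons use the same 5 MO mice, so their values are given side by side and are not independent. Limma was fitted on all 18167 genes, and a gene passed at a Benjamini-Hochberg false discovery rate (FDR) of at most 0.05. In MY vs. MO, 6 of 34 members passed with a higher level in MO, beside 13.1% of all genes. None of the 34 members passed with a lower level in limma's test, beside 12.5% of all genes. An unadjusted p under 0.05 was found for 12 members, beside 6673 of 18167 genes. For WO vs. MO, 4 of 34 members passed with a higher level in MO, beside 15% of all genes. No member passed with a lower level in limma's test, beside 12.9% of all genes. For 5 members the unadjusted p was under 0.05, beside 6986 of 18167 genes. The shares of members that passed with a higher level are near those of all genes.

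Without MO5, 5 members passed in MY vs. MO (*Psmc4*, *Psmd4*, *Psmd8*, *Psme1* and *Psme2*), beside 2178 of 18167 genes with a higher level in MO. Without it, 4 passed in WO vs. MO, the same 4 genes as with all mice (*Psmd4*, *Psmd8*, *Psme1* and *Psme2*), beside 2516 of all genes. Only *Psme1* also reached a fold change of 1.5, in both comparisons, with and without MO5. That is 1 of 34 members, beside 4.11% of all genes raised in MY vs. MO and 4.08% in WO vs. MO. In 10 of 34 members every MO mouse lay above every MY mouse, beside 15.7% of all genes. In 3 of 34 members every MO mouse lay above every WO mouse, beside 11.3% of all genes. Without MO5 these counts were 13 and 4 of 34, beside 17.6% and 12.4% of all genes.

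Small differences above 0 were common among the members. The log2 fold change was above 0 in 28 of 34 members in MY vs. MO, with a median of 0.12, while the median over all genes was 0.00 and 51.7% of them lay above 0. For WO vs. MO it was above 0 in 30 of 34 members, with a median of 0.07, while the median over all genes was 0.00 and 50.2% of them lay above 0. Without MO5 it was above 0 in 30 of 34 members in MY vs. MO (median 0.12) and 32 of 34 in WO vs. MO (median 0.09). With any 1 mouse left out, the median over the 31 core and cap genes was 0.09 to 0.12 in MY vs. MO (25 to 27 above 0). The same in WO vs. MO was 0.03 (24 above 0, without MO2) to 0.10 (29 above 0, without MO1). With batch 1 alone it was 0.03 in WO vs. MO (20 above 0). Part of this shift depends on scaling. Without PA28, 28 of 31 subunits were above 0 in WO vs. MO, but 20 of 31 after each mouse was centred on its median, and 24 of 31 after quantile normalization. The corresponding counts in MY vs. MO were 26, 24 and 25 of 31. In the same order, the medians over the 31 were 0.0703, 0.0292 and 0.0455 in WO vs. MO. Those in MY vs. MO were 0.109, 0.0701 and 0.0772. The calls over all genes shifted as well: 2730 genes were higher and 2345 lower in MO in WO vs. MO, against 2161 and 3418 after median centring and 2341 and 3409 after quantile normalization. In MY vs. MO the 2377 higher and 2269 lower genes became 1951 and 2963 after median centring, and 2068 and 3179 after quantile normalization.

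**Figure D1:**
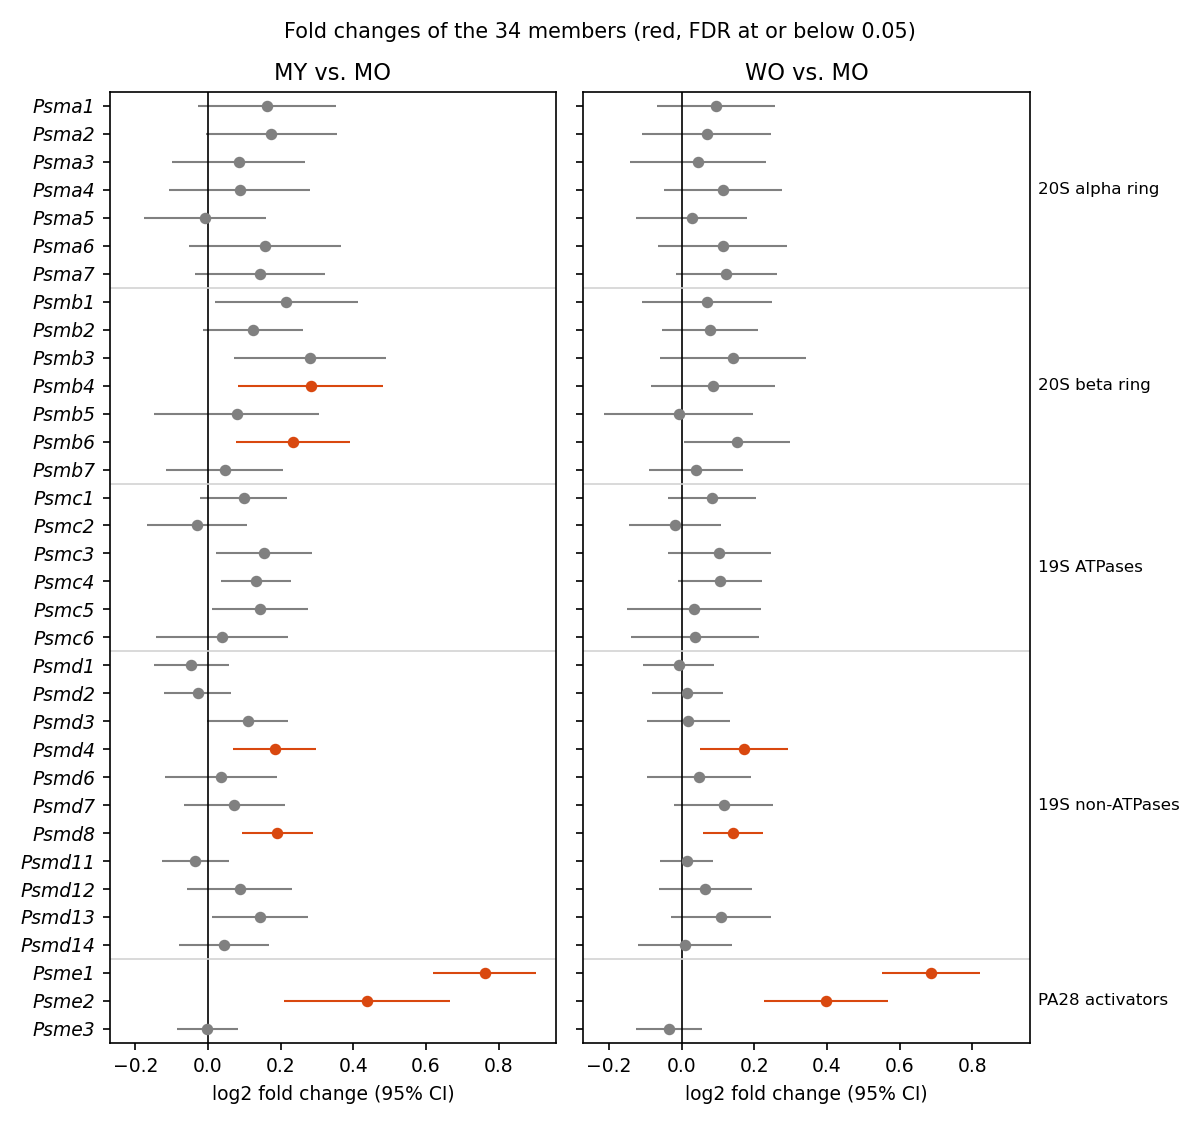
Log2 fold change of each of the 34 members in MY vs. MO (left) and WO vs. MO (right), with 95% confidence intervals and FDR at or below 0.05 in red. *Psme1* (0.76 and 0.69) and *Psme2* (0.44 and 0.40) lie to the right of every core and cap gene, while *Psme3* (-0.00 and -0.04) lies at 0; the order of these 3 genes held under both scalings tried.

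In the alpha ring of the core, which gates the entrance and docks the cap, 0 of 7 genes passed limma's test in either comparison, and 0 had an unadjusted p under 0.05. Log2 fold changes ranged from -0.01 to 0.17 in MY vs. MO (median 0.14) and from 0.03 to 0.12 in WO vs. MO (median 0.10). Within this ring, the highest log2 fold change in WO vs. MO was that of *Psma7*. Its values were 6.75, 6.97, 6.96, 7.10 and 6.91 in MO, 6.87, 6.91, 6.81, 6.73 and 6.75 in WO, 6.68, 6.85 and 6.85 in MY, and 7.04, 6.90 and 6.99 in WY. The MO mice overlapped with the WO mice and with the MY mice, and all MY mice were below all WY mice. Its log2 fold change was 0.12 (SE 0.06, FDR 0.175) in WO vs. MO. The lowest of the ring was that of *Psma5*, with values of 6.17, 6.47, 6.21, 6.41 and 6.34 in MO and 6.30, 6.37, 6.40, 6.16 and 6.24 in WO. These groups covered nearly the same range, and the log2 fold change was 0.03 (SE 0.07, FDR 0.818).

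The beta ring carries the catalytic sites. In MY vs. MO, 2 of its 7 genes passed, *Psmb4* and *Psmb6*, and the median log2 fold change was 0.22 (0.05 to 0.28). Between WO and MO, 0 of 7 passed limma's test, 1 had an unadjusted p under 0.05, and the median was 0.08 (-0.01 to 0.15). *Psmb6* encodes the subunit with caspase-like activity, the one that *Psmb9* replaces in the immunoproteasome. Its values were 6.77, 7.08, 6.96, 7.00 and 7.01 in MO, 6.68, 6.74 and 6.77 in MY, 6.94, 6.78, 6.90, 6.70 and 6.74 in WO, and 7.06, 6.72 and 6.87 in WY. Of the MO mice, MO1 was level with the highest MY mouse, the others were above it, and MO overlapped with WO and WY. The log2 fold change of *Psmb6* was 0.23 (SE 0.07, FDR 0.0375, 1.18-fold) in MY vs. MO. Between WO and MO it was 0.15 (SE 0.07, FDR 0.116).

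*Psmb4*, a beta subunit without a catalytic site, had values of 7.27, 7.62, 7.34, 7.59 and 7.54 in MO, 7.13, 7.20 and 7.24 in MY, 7.48, 7.47, 7.39, 7.24 and 7.35 in WO, and 7.61, 7.23 and 7.44 in WY. All MO mice were above all MY mice, but MO overlapped with WO and WY. Its log2 fold change was 0.28 (SE 0.09, FDR 0.0451) in MY vs. MO and 0.09 (FDR 0.463) in WO vs. MO. Without MO5 the FDR in MY vs. MO was 0.0712 for *Psmb6* and 0.0851 for *Psmb4*, and neither passed when any 1 of the MY mice was left out. With 1 mouse left out, *Psmb6* passed only without MO1 (FDR 0.00347), with an FDR of 0.0641 to 0.141 without each of the others. *Psmb4* passed only without MO1 (FDR 0.0121) or MO3 (FDR 0.044), with an FDR of 0.0763 to 0.16 without each of the others. *Psmb3*, a further beta subunit without a catalytic site, had the same log2 fold change of 0.28 in MY vs. MO and missed the threshold with an FDR of 0.0545. The lowest log2 fold change of the ring in WO vs. MO was that of *Psmb5*, which encodes the subunit with chymotrypsin-like activity. Its values were 6.48, 6.84, 6.67, 6.97 and 6.82 in MO and 6.96, 6.66, 6.83, 6.66 and 6.70 in WO. The MO mice reached both lower and higher than the WO mice, and the log2 fold change was -0.01 (SE 0.09, FDR 0.966).

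The 19S ATPases form the ring that unfolds substrates and pushes them into the core. Between MY and MO, 0 of 6 passed limma's test and 3 had an unadjusted p under 0.05, with a median log2 fold change of 0.12 (-0.03 to 0.15). For WO vs. MO, 0 of 6 passed and 0 had an unadjusted p under 0.05, with a median of 0.06 (-0.02 to 0.11). *Psmc4*, with the highest log2 fold change of this ring in WO vs. MO, was at 6.54, 6.55, 6.45, 6.52 and 6.43 in MO, 6.35, 6.35 and 6.40 in MY, 6.55, 6.26, 6.41, 6.35 and 6.38 in WO, and 6.43, 6.30 and 6.29 in WY. All MO mice were above all MY mice, and WO1 was as high as the highest MO mouse. The log2 fold change of *Psmc4* was 0.13 (SE 0.04, FDR 0.0502) in MY vs. MO, just outside the threshold. In WO vs. MO it was 0.11 (SE 0.05, FDR 0.169). *Psmc2*, the lowest of the ring, was at 6.14, 6.27, 6.12, 6.25 and 6.04 in MO and 6.24, 6.03, 6.22, 6.23 and 6.19 in WO. The 2 groups overlapped over most of their range, and the log2 fold change was -0.02 (SE 0.06, FDR 0.865).

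Of the 11 non-ATPases, which receive and deubiquitinate substrates, 2 passed in both comparisons, *Psmd4* and *Psmd8*. The median log2 fold change was 0.07 (-0.05 to 0.19) in MY vs. MO and 0.05 (-0.01 to 0.17) in WO vs. MO. *Psmd4* encodes a ubiquitin receptor of the cap. It was at 6.96, 7.01, 6.88, 6.85 and 6.84 in MO, 6.72, 6.70 and 6.76 in MY, 6.88, 6.61, 6.72, 6.75 and 6.73 in WO, and 6.99, 6.73 and 6.72 in WY. All MO mice were above all MY mice, and 1 WO mouse (WO1) and 1 WY mouse (WY1) lay inside the MO range. The log2 fold change of *Psmd4* was 0.18 (SE 0.05, FDR 0.0282) in MY vs. MO and 0.17 (SE 0.05, FDR 0.0393) in WO vs. MO. Without MO5 it was 0.20 (FDR 0.0279) and 0.19 (FDR 0.0424). The call in MY vs. MO was lost without MY1 (FDR 0.1), MY2 (FDR 0.101) or MY3 (FDR 0.0672). That in WO vs. MO was lost without each of MO1, MO2, MO3, WO2, WO3, WO4 and WO5, at an FDR of 0.0598 to 0.0897. Both calls of *Psmd4* were also lost with a pseudocount of 0.1, with median centring (FDR 0.0811 and 0.127), with quantile normalization (FDR 0.0891 and 0.0713), with the length trend removed and with the replicate block. The call in WO vs. MO was lost with batch 1 alone as well (0.21, FDR 0.151), and that in MY vs. MO with all groups in 1 fit.

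*Psmd8*, a structural subunit of the lid of the cap, was at 5.94, 6.05, 6.00, 6.08 and 6.01 in MO, 5.85, 5.84 and 5.79 in MY, 5.91, 5.88, 5.90, 5.80 and 5.89 in WO, and 5.95, 5.80 and 5.93 in WY. Every MO mouse was above every MY and every WO mouse, by a small margin, and WY1 was inside the MO range. The log2 fold change of *Psmd8* was 0.19 (SE 0.04, FDR 0.0127, 1.14-fold) in MY vs. MO and 0.14 (SE 0.04, FDR 0.0161, 1.10-fold) in WO vs. MO. Without MO5 it was 0.19 (FDR 0.0236) and 0.14 (FDR 0.0303). *Psmd8* missed the threshold in MY vs. MO without MY3 (0.17, FDR 0.0641), and in WO vs. MO with batch 1 alone (0.10, FDR 0.252) or median centring (FDR 0.0966). It missed it in both with the replicate block (FDR 0.0915 and 0.0811). *Psmd1*, a large scaffold subunit of the base, had the lowest log2 fold change of the non-ATPases in WO vs. MO. It was at 5.95, 5.94, 5.87, 5.84 and 5.81 in MO and 5.90, 5.78, 5.98, 5.90 and 5.89 in WO, with overlapping groups and a log2 fold change of -0.01 (SE 0.04, FDR 0.922).

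For the 31 core and cap genes together, the 95% confidence intervals of the log2 fold change ran from -0.18 to 0.49 in MY vs. MO. In WO vs. MO they ran from -0.21 to 0.34. The highest bounds correspond to fold changes of 1.40 and 1.27, so that in these fits no core or cap gene had an interval that reached 1.5-fold.

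*Psme1* and *Psme2* gave the largest differences of all members in both comparisons. *Psme1* encodes PA28 alpha, which assembles with PA28 beta into a ring in the cytoplasm. It was at 5.20, 5.44, 5.42, 5.26 and 5.30 in MO, 4.53, 4.59 and 4.56 in MY, 4.66, 4.64, 4.78, 4.52 and 4.59 in WO, and 4.92, 4.66 and 4.75 in WY. Every MO mouse was above all 11 other mice, with the highest of these in WY1. *Psme1* rose by 0.76 (SE 0.06, FDR 0.000269, 1.70-fold) in MY vs. MO and by 0.69 (SE 0.06, FDR 3.2e-05, 1.61-fold) in WO vs. MO. Without MO5 the log2 fold changes were 0.77 (FDR 0.000804) and 0.69 (FDR 0.000143). In bulk tissue, a change in the number of cells of a type and a change in RNA per cell cannot be told apart.

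*Psme2* encodes PA28 beta. It was at 4.96, 5.19, 5.37, 5.41 and 5.26 in MO, 4.71, 4.85 and 4.83 in MY, 4.84, 4.90, 4.84, 4.79 and 4.82 in WO, and 5.24, 4.81 and 4.88 in WY. Every MO mouse was above every MY and WO mouse, MO1 by the smallest margin, and WY1 lay inside the MO range. *Psme2* rose by 0.44 (SE 0.10, FDR 0.0139, 1.36-fold) in MY vs. MO and by 0.40 (SE 0.08, FDR 0.00318, 1.32-fold) in WO vs. MO. Without MO5 these were 0.43 (FDR 0.0291) and 0.39 (FDR 0.00872). The call in MY vs. MO was lost without MY1 (0.39, FDR 0.067), and the call in WO vs. MO was lost with the mice of batch 1 alone (0.31, FDR 0.103).

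*Psme3* encodes PA28 gamma, which forms a ring of its own in the nucleus. It was at 5.28, 5.24, 5.25, 5.30 and 5.22 in MO, 5.25, 5.23 and 5.29 in MY, 5.40, 5.22, 5.32, 5.22 and 5.32 in WO, and 5.25, 5.26 and 5.18 in WY. All groups overlapped. The log2 fold change of *Psme3* was -0.00 (FDR 0.985) in MY vs. MO and -0.04 in WO vs. MO, where its 95% confidence interval ran from -0.13 to 0.06.

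**Figure D2:**
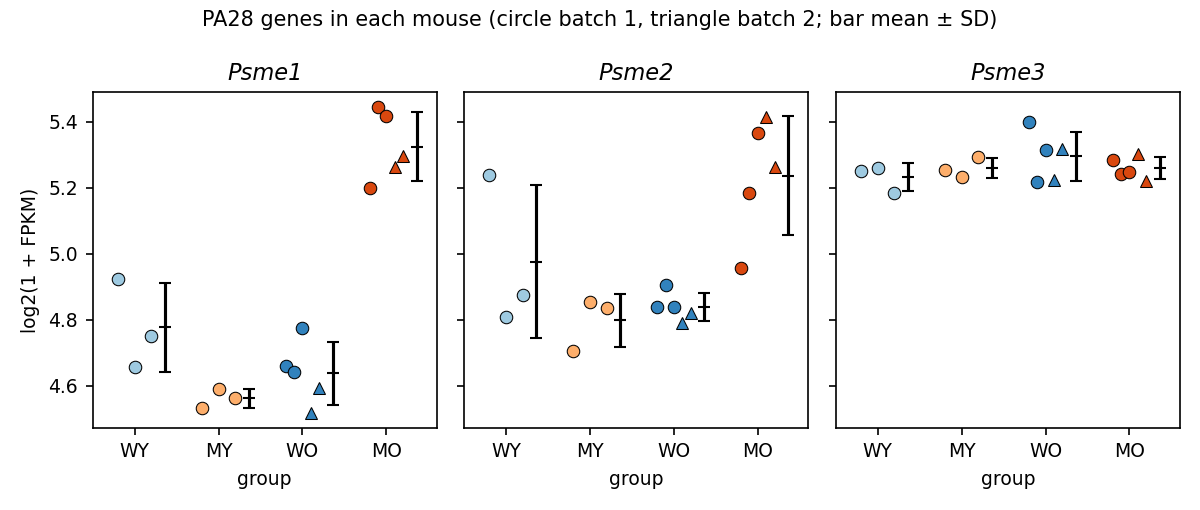
Level, log2(1 + FPKM), of *Psme1*, *Psme2* and *Psme3* in each of the 16 mice by group, with circles for batch 1, triangles for batch 2 and bars for mean ± SD. The MO mice lie at 5.20 to 5.44 for *Psme1* and 4.96 to 5.41 for *Psme2*, while the groups overlap for *Psme3*.

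The order of the PA28 alpha and beta genes also differed between groups. The level of *Psme1* minus that of *Psme2* was below 0 in each WY, MY and WO mouse, with means of -0.20, -0.24 and -0.20. In MO it was 0.24, 0.26, 0.05, -0.15 and 0.03, so that *Psme1* was the higher of the pair in 4 of 5 MO mice. The exception, MO4, had the highest *Psme2* value of the 16 mice.

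The class medians were also read by group, and whether the classes moved together within a mouse was not tested. The median level over the 14 core genes was 6.91 ± 0.16 in WY, 6.76 ± 0.07 in MY (SD, n = 3 each), 6.83 ± 0.10 in WO and 6.95 ± 0.11 in MO (SD, n = 5 each). The median over the 17 cap genes was 6.21 ± 0.03 in WY, 6.15 ± 0.02 in MY, 6.18 ± 0.05 in WO and 6.20 ± 0.10 in MO. For both, the WY and MO means differed by less than the SD in MO. Without MO5 the MO means were 6.95 for the core, 6.24 for the cap and 5.28 for PA28. The median over the 3 PA28 genes was 4.98 ± 0.23 in WY, 4.80 ± 0.08 in MY, 4.84 ± 0.04 in WO and 5.27 ± 0.06 in MO. The MO mice lay at 5.20 to 5.37 and the WO mice at 4.79 to 4.90, without overlap, while WY1 was at 5.24. A median over 3 genes is the value of 1 gene, which was *Psme2* in every WY, MY and WO mouse. In MO it was *Psme1* in MO1, *Psme3* in MO2 and MO4, and *Psme2* in MO3 and MO5. The SD of 0.06 in MO is thus not that of 1 gene: it was 0.10 for *Psme1* and 0.18 for *Psme2*.

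**Figure D3:**
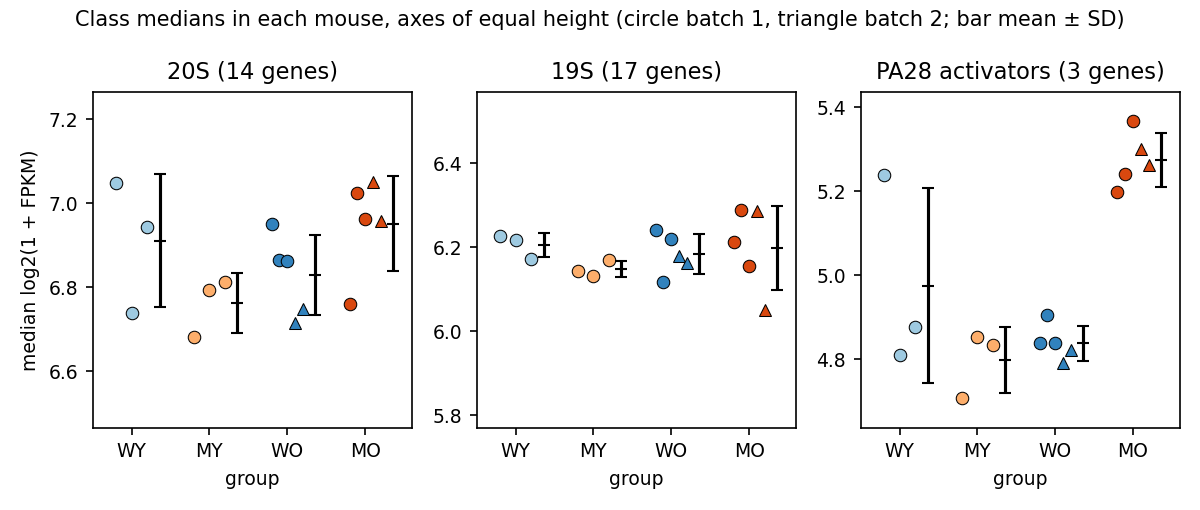
Median log2(1 + FPKM) of the 20S, 19S and PA28 genes in each mouse by group, on axes of equal height, with circles for batch 1, triangles for batch 2 and bars for mean ± SD. The PA28 medians of MO (5.20 to 5.37) lie above those of WO (4.79 to 4.90), and the core and cap medians overlap between groups. Each PA28 median is the value of 1 gene, *Psme2* in all WY, MY and WO mice but *Psme1* in MO1 and *Psme3* in MO2 and MO4.

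Within batches, the median log2 fold change of the core genes was -0.01 in batch 1 (3 WO and 3 MO mice) and 0.20 in batch 2 (2 WO and 2 MO mice) for WO vs. MO. For the cap genes it was 0.05 in batch 1 and 0.08 in batch 2. The small positive shift of the core genes in WO vs. MO was thus not seen in batch 1. Over all genes both medians were 0.00. *Psme1* differed by 0.66 in batch 1 and 0.72 in batch 2, and *Psme2* by 0.31 and 0.53. *Psmd8* differed by 0.10 and 0.20, and *Psmd4* by 0.21 and 0.11. In MY vs. MO a comparison within batch was possible in batch 1 alone, since both young groups were in batch 1, and *Psme1* was higher by 0.79 and *Psme2* by 0.37.

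WY vs. WO asks how the members differ with age in wild-type mice. In limma's test 0 of 34 members passed, beside 1.12% of all genes in either direction. An unadjusted p under 0.05 was found for 1 member, beside 2447 of 18167 genes. The member was *Psma7* (-0.16, FDR 0.246). Log2 fold changes of the members ran from -0.16 to 0.09 with a median of -0.02. Over the 31 core and cap genes the median was -0.02 as well, and it turned to 0.00 with quantile normalization, 0.01 with the length trend removed and 0.02 with batch 1 alone. WY vs. MY compares the genotypes at 50 days. Again 0 of 34 members passed limma's test, beside 0.0055% of all genes in either direction, and 3 had an unadjusted p under 0.05, beside 1301 genes. Only 7 of 34 members and 0 of 14 core genes lay above 0, with medians of -0.06 and -0.08, beside 48.7% and a median of -0.00 over all genes, and these values enter the difference between genotypes described below. Over the 31 core and cap genes 6 lay above 0 (median -0.05). This became 10 (-0.04) with quantile normalization, 12 (-0.01) with the length trend removed, 9 (-0.03) without WY1 and 6 (-0.08) without WY2. The highest core gene lay above 0 with quantile normalization (0.06), with the length trend removed (0.03) and without WY1 (0.01), MY1 (0.01) or WY3 (0.01). The 3 with an unadjusted p under 0.05 were *Psma7* (-0.18, FDR 0.672), *Psmd13* (-0.12, FDR 0.677), a lid subunit, and *Psme1* (-0.21, FDR 0.665). Without WY2 the members at an unadjusted p under 0.05 numbered 4 in WY vs. WO and 12 in WY vs. MY, so these counts depended on single mice. In 5 of 34 members every MY mouse was below every WY mouse, beside 7.52% of all genes. These were *Psma7*, *Psmd7*, *Psmd13*, *Psmd14* and *Psme1*.

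Whether the change with age differed between genotypes was tested as (MO - MY) - (WO - WY) in 1 fit of the 4 groups. There 4 of 34 members passed with a more positive change with age in mutant mice, beside 10.5% of all genes. No member passed in the other direction in limma's test, beside 1307 of 18167 genes. An unadjusted p under 0.05 was found for 8 members, beside 5655 of all genes. The differences were 0.90 (FDR 6.5e-05) for *Psme1*, 0.58 (FDR 0.0122) for *Psme2*, 0.30 (FDR 0.0457) for *Psma7* and 0.21 (FDR 0.03) for *Psmd8*. *Psma7* passed in neither MY vs. MO nor WY vs. WO on its own. Without MO5 the differences were 0.91 (FDR 0.000145), 0.57 (FDR 0.0197), 0.31 (FDR 0.0558) and 0.21 (FDR 0.0401). Without WY1 they were 0.83 (FDR 0.000303), 0.44 (FDR 0.0312), 0.27 (FDR 0.118) and 0.18 (FDR 0.0837), so that the PA28 genes alone among these 4 passed in both cases. *Psme2* missed the threshold with batch 1 alone (0.49, FDR 0.0899) and with the replicate block.

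Other genes of the pathway were read from 8 lists. In the comparisons WY vs. WO and WY vs. MY, 0 of their genes passed limma's test. The immunoproteasome subunits replace the catalytic beta subunits of the core. Of its 3 genes, 2 passed with a higher level in MO in both comparisons. *Psmb8*, which takes the place of *Psmb5*, was at 3.68, 3.92, 4.00, 3.49 and 3.61 in MO, 2.13, 1.96 and 1.91 in MY, 2.50, 2.26, 2.32, 2.06 and 1.88 in WO, and 2.29, 1.96 and 2.21 in WY. All MO mice lay far above all other mice. *Psmb8* rose by 1.74 (SE 0.12, FDR 0.000203, 3.33-fold) in MY vs. MO and by 1.53 (SE 0.13, FDR 2.5e-05, 2.89-fold) in WO vs. MO. Without MO5 these were 1.77 and 1.57.

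*Psmb9*, which takes the place of *Psmb6*, was at 2.22, 2.33, 2.55, 2.55 and 2.21 in MO, 1.66, 1.29 and 1.62 in MY, 1.44, 1.53, 1.80, 1.26 and 1.61 in WO, and 1.65, 0.99 and 1.53 in WY. The MO mice were above all others here too. *Psmb9* rose by 0.85 (FDR 0.00134) in MY vs. MO and by 0.84 (FDR 0.000212) in WO vs. MO. Without MO5 these were 0.89 and 0.88, and both genes still passed. *Psmb10*, the counterpart of the remaining catalytic subunit, differed by 0.28 (FDR 0.12) and 0.13 (FDR 0.365).

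Interferon-responsive genes are those that interferon signalling is known to raise, and both PA28 alpha and beta are in that class in other tissues. Of the 8 genes on this list, 7 passed with a higher level in MO in MY vs. MO and 8 in WO vs. MO. *Tap1*, a peptide transporter, was at 2.21, 2.01, 2.32, 2.07 and 2.04 in MO, 1.18, 1.24 and 1.15 in MY, 1.39, 1.27, 1.35, 1.12 and 1.29 in WO, and 1.32, 1.29 and 0.99 in WY. All MO mice were above all others. *Tap1* rose by 0.94 (FDR 0.000247) in MY vs. MO and by 0.85 (FDR 2.4e-05) in WO vs. MO. *Irf9*, a transcription factor, rose by 0.65 (FDR 0.000302) and 0.71 (FDR 3.9e-05). *Nlrc5*, a regulator of MHC class I genes, rose by 0.60 (FDR 0.000474) and 0.62 (FDR 5.7e-05), and by 1.29 and 1.37 with a pseudocount of 0.1, so that the size for this gene of low level depends on the 1 added to FPKM.

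The antiviral genes *Ifit1* and *Ifit3* and the ubiquitin-like modifier *Isg15* completed the named genes of that list. *Ifit1* rose by 0.82 (FDR 0.00181) in MY vs. MO and 0.88 (FDR 0.000126) in WO vs. MO. *Ifit3* rose by 0.82 (FDR 0.00481) and 0.97 (FDR 5.7e-05). *Isg15* rose by 0.71 (FDR 0.0172) and 0.92 (FDR 0.00134), but missed the threshold in MY vs. MO without MY1 (FDR 0.0675) or MY3 (FDR 0.0739), and in WO vs. MO with batch 1 alone (FDR 0.0558). Without MO5, 7 of the 8 listed genes passed in each comparison, with log2 fold changes of 0.96 and 0.87 for *Tap1*, 0.68 and 0.74 for *Irf9*, 0.63 and 0.65 for *Nlrc5*, 0.81 and 0.87 for *Ifit1*, 0.81 and 0.96 for *Ifit3*, and 0.69 and 0.89 for *Isg15*, all of which passed.

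Of 4 genes that act on the transcription of subunit genes, 1 passed in each comparison. This was *Nfe2l2*, a factor of the antioxidant response, at 4.63, 4.93, 4.82, 4.63 and 4.56 in MO, 4.12, 4.09 and 4.10 in MY, 3.96, 4.12, 4.03, 3.98 and 3.86 in WO, and 3.97, 4.01 and 3.96 in WY. The MO mice were above all others. *Nfe2l2* rose by 0.61 (FDR 0.00152) in MY vs. MO and by 0.72 (FDR 7.9e-05) in WO vs. MO. Without MO5 these were 0.65 and 0.76, and both passed. *Nfe2l1*, the factor that raises subunit genes when proteasome activity is short, differed by -0.05 and -0.08 and did not pass. Every MO mouse (at most 6.924) still lay below every WO mouse (at least 6.928) for *Nfe2l1*, beside 1571 of 18167 genes. It overlapped between MO and MY and between MO and WY.

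The remaining lists held smaller differences. Of 4 further subunits of the particle, 1 passed in MY vs. MO and 0 of 4 in WO vs. MO, where 0 had an unadjusted p under 0.05 in limma's test. The cap's ubiquitin receptor *Adrm1* differed by 0.20 (FDR 0.022) in MY vs. MO and by 0.12 (FDR 0.179) in WO vs. MO, and the first missed the threshold without MY1, MY2 or MY3 (FDR 0.0938, 0.0734 and 0.0586). Of 8 assembly chaperones, 0 passed limma's test in either comparison, with 2 and 1 at an unadjusted p under 0.05. The core assembly factor *Pomp* differed by 0.25 (FDR 0.116) and 0.18 (FDR 0.162). Of 6 proteasome-bound regulators, 2 passed with a lower level in MO in MY vs. MO and 1 in WO vs. MO. The ubiquitin ligase *Ube3c* fell by 0.23 (FDR 0.00842) and 0.19 (FDR 0.00574), the latter with an FDR of 0.0523 in batch 1 alone.

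Of 6 genes for ubiquitin and its activating enzymes, 2 passed with a higher and 1 with a lower level in MO in MY vs. MO. In WO vs. MO 0 of 6 passed limma's test and 3 had an unadjusted p under 0.05. The polyubiquitin gene *Ubb* differed by 0.21 (FDR 0.0393) in MY vs. MO, where quantile normalization gave -0.020, and by 0.26 (FDR 0.0676) in WO vs. MO. Of 9 shuttle factors and parts of the Vcp complex, 1 passed with a higher and 2 with a lower level in MY vs. MO. In WO vs. MO these counts were 1 and 3. The ubiquilin *Ubqln4* fell by 0.15 (FDR 0.0442) in MY vs. MO and by 0.27 (FDR 0.00088) in WO vs. MO. The first call held in 6 of 17 alternatives and was lost without any 1 of MO1, MO2, MO3, MO5 (FDR 0.0593), MY1, MY2 and MY3, while the second held in 19 of 19. Without MO5 the values in MY vs. MO were 0.20 (FDR 0.0364) for *Adrm1*, -0.23 (FDR 0.0169) for *Ube3c* and 0.22 (FDR 0.0478) for *Ubb*, and *Ube3c* was at -0.20 (FDR 0.0128) in WO vs. MO. The regulators then had 1 lower gene in MY vs. MO, and the shuttle list 1 higher and 1 lower gene in MY vs. MO and 2 higher and 3 lower in WO vs. MO. The transcription list had 1 higher and 1 lower gene in MY vs. MO.

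Cell type markers differed between the groups as well. Of 10 microglia markers, 9 passed with a higher level in MO in both comparisons, the exception being *P2ry12*. Their summed FPKM was 1188, 1638, 1876, 1010 and 1162 in MO, 239 to 268 in MY, 193 to 327 in WO and 231 to 274 in WY, with *C1qb* as the most abundant gene of the 10. Of 8 astrocyte markers, 4 passed with a higher level in MY vs. MO and 6 in WO vs. MO. In each comparison 7 of 8 had a log2 fold change above 0, and the other was lower in MO (-0.28 and -0.21) without passing. The summed FPKM of the 8 was 4077 to 4988 in MO, 2869 to 2955 in MY, 2523 to 2759 in WO and 2975 to 3256 in WY, with *Gfap* as the most abundant. No MO sum of microglia or astrocyte markers overlapped with another group.

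Of 6 motor neuron markers, 4 passed with a lower level in MO in both comparisons (*Chat*, *Slc18a3*, *Slc5a7* and *Mnx1*). Their summed FPKM had a median of 104 in MO (lowest 87.1), and was 116 to 129 in MY, 121 to 149 in WO and 105 to 126 in WY, with *Prph* as the most abundant. Every MO sum was below every MY and WO sum, and MO overlapped with WY. Oligodendrocyte markers were dominated by *Mbp*, and their sum varied widely in old mice, from 5315 to 23950 in WO and from 7205 to 22280 in MO. In MO the sums differed by batch, with 7205, 7708 and 7805 in batch 1 and 22280 and 21700 in batch 2. In WO they were 10270, 9515 and 9547 in batch 1 and 5315 (WO4) and 23950 (WO5) in batch 2. Of the 7 oligodendrocyte markers, 4 passed with a lower level in MY vs. MO, and 2 with a lower and 1 with a higher level in WO vs. MO. In WY vs. WO, 4 oligodendrocyte and 2 astrocyte markers passed with a lower level in WO. The 5 T lymphocyte markers stayed near 0, with a summed FPKM of at most 0.63 in MO and at most 0.26 in the other groups, and 2 of them had a mean of log2(1 + FPKM) below 0.1 in MO. *Cd3g* was the most abundant, and 0 of 5 passed limma's test in MY vs. MO, with 1 at an unadjusted p under 0.05, while 2 passed in WO vs. MO. Of the 5 *Hox* genes, 0 passed limma's test in MY vs. MO, with 1 at an unadjusted p under 0.05, and *Hoxc8* passed with a lower level in MO in WO vs. MO (-0.43, FDR 0.0151). Without MO5, the markers that passed in MY vs. MO were 9 of microglia and 4 of astrocytes with a higher level, and 3 of motor neurons and 6 of oligodendrocytes with a lower level. In WO vs. MO without it they were 9, 5 and 1 of microglia, astrocytes and T lymphocytes with a higher level, 4 of motor neurons with a lower level, and 1 of oligodendrocytes in each direction. The part of position along the cord and of these cell types in the differences of the subunit genes was not tested.

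The members share few features of position. They lie on 14 chromosomes of the GRCm38 build, with 7 on chromosome 11 and 5 on chromosome 14. *Psme1* (chr14:55578123-55581529, plus strand) and *Psme2* (chr14:55587441-55591113, minus strand) lie 5911 bases apart, whereas *Psme3* is on chromosome 11 (chr11:101316213-101323537, plus strand). The transcripts of the members are short: their median length was 1384.5 bases (711 to 3112), against 2548 for 17419 genes with a length in GENCODE M21. The shortest was that of *Psme1* with 711 bases.

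Length and fold change were related across genes. Over the 17419 genes, Spearman's rho between transcript length and log2 fold change was -0.312 in MY vs. MO and -0.214 in WO vs. MO. Over the 31 core and cap genes it was -0.451 and -0.481. In WY vs. WO and WY vs. MY it was 0.14 and 0.344 over all genes, and 0.469 and 0.555 over the 31, so that the sign differed between comparisons. These values describe genes that share the same mice and are not independent replicates. With the length trend of each mouse removed, 22 of 31 core and cap genes were above 0 in MY vs. MO and 25 of 31 in WO vs. MO. Their medians were then 0.06 and 0.04, against 0.11 and 0.07 with the trend left in. In WY vs. MY, 12 of 31 were then above 0 (median -0.01), against 6 (median -0.05) with the trend left in.

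Promoter windows, from 250 bases before to 50 bases after each gene's start, were available from RefSeq (GRCm38.p6) for 28 of 34 members, and were searched because *Psme1*, *Psme2* and some core and cap genes passed. On both strands, 3 sets of letters were sought. The letters GAAANNGAA, part of elements bound by interferon-regulated factors, were found in 5 of 28 members (17.9%) and in 9.76% of 27025 genes. The letters TGACNNNGC, the core of antioxidant response elements, were found in 4 of 28 members (14.3%) and in 14.0% of genes. The letters CCAAT were found in 11 of 28 members (39.3%) and in 41.1% of genes. The 5 members with GAAANNGAA include *Psme1*, *Psmd4* and *Psmb4*, which passed in at least 1 comparison, and *Psmb3* and *Psmc2*, which did not. Their matches are shown in capitals on the strand of the gene, from 5′ to 3′, and a match that starts with TTC lies on the opposite strand.
Psme1, chr14:55578494-55578522, plus strand: gagctgtgctTTCGCTTTCccttcccgct
Psmb4, chr3:94886943-94886971, minus strand: aaaggaccacTTCCGTTTCcggtgacgct
Psmd4, chr3:95042675-95042703, minus strand: taaccaacctTTCCATTTCtgtggcgcct
Psmb3, chr11:97703262-97703290, plus strand: acagtgacttTTCACTTTCcgctttccat
Psmc2, chr5:21786729-21786757, plus strand: gtggggaagaGAAAGGGAAgacaccagcg

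Among the 4 members with TGACNNNGC were the catalytic core genes *Psmb6*, which passed in MY vs. MO, and *Psmb5*, which did not pass in either comparison. Their matches are given in the same way as a contrast.
Psmb6, chr11:70525338-70525366, plus strand: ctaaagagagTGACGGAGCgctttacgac
Psmb5, chr14:54618024-54618052, minus strand: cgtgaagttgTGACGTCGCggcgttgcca

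A match describes letters in a window and is not evidence of binding. The windows of *Psme2* and *Psmd8* held neither of the first 2 sets of letters, which says only that these letters are not in those windows. The window of the immunoproteasome gene *Psmb9*, which rose in MO, held CCAAT and likewise neither of the first 2 sets.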

How the data were processed

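The log2 values of FPKM plus 1 were deposited by the authors and used as they are, 1 column per mouse. The sources name Trimmomatic for trimming, TopHat for alignment to mm10 and Cufflinks for FPKM; versions and annotation are not given in the sources used here. The authors dropped a gene at an FPKM of 0 in at least 8 mice and corrected for batch with ComBat, whose covariates are not stated. Among the values 915 were below 0 and 0 were exactly 0.

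Limma 3.58.1 (lmFit and eBayes, two-sided, default settings) in R 4.3.3 was fitted on all 18167 genes, each comparison on its own 2 groups, with Benjamini-Hochberg FDR over all genes. Genes passed at an FDR of at most 0.05, with a fold change of at least 1.5 as a second rule. The procedure was tested on simulated data. Python 3.11.15, pandas 2.3.3, NumPy 2.4.6 and matplotlib 3.10.9 were used. Positions and lengths came from GENCODE M21 by symbol.

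Values per mouse were given for members past both rules, the PA28 genes, and the highest and lowest member of each class in WO vs. MO. *Psmb4*, *Psmd8*, *Psmb3* and *Hoxc8* fell outside this and were named after their values were seen, as were members listed with small counts. Pathway genes were named when past both rules, or else as the largest difference of their list in WO vs. MO. *Psmb10* and *Nfe2l1* were named outside this. The result of 1 listed marker is left out here. The members and lists were chosen with earlier results of these data known.

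Alternatives were a pseudocount of 0.1, genes with a mean of at least 1, median centring, quantile normalization, batch 1 only, batch as a term, all groups in 1 fit, a replicate block (replicates with the same number paired), and 1 mouse left out at a time. Removal of the transcript length trend by lowess (span 0.3) was added after seeing the data.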

Additional observations from a re-analysis of the deposited data

Results flagged for a closer look

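Several genes differed between genotypes in their change with age, tested as (MO - MY) - (WO - WY) over all genes. The difference was 0.90 (FDR 6.5e-05) for *Psme1*, 0.58 (FDR 0.0122) for *Psme2*, 0.30 (FDR 0.0457) for *Psma7* and 0.21 (FDR 0.03) for *Psmd8*. Among the immunoproteasome and transcription genes it was 1.68 (FDR 7.3e-05) for *Psmb8*, 0.71 (FDR 0.031) for *Psmb9* and 0.60 (FDR 0.00134) for *Nfe2l2*. Among interferon-responsive genes it was 0.68 (FDR 0.00695) for *Irf9*, 0.54 (FDR 0.0012) for *Nlrc5*, 0.92 (FDR 0.00215) for *Ifit1*, 0.95 (FDR 0.00211) for *Ifit3*, 1.07 (FDR 0.00575) for *Isg15* and 0.86 (FDR 0.000268) for *Tap1*. It was negative for *Ube3c* (-0.32, FDR 0.0398) and *Ubqln4* (-0.29, FDR 0.00648). Genes that are not named here passed too. By list, the transcription genes had 1 positive and 1 negative call, and the ubiquitin genes 1 negative call. The shuttle list had 1 positive and 2 negative calls, the assembly chaperones 1 positive and the interferon-responsive genes 7 positive. Over all 18167 genes there were 1903 positive and 1307 negative calls. The result held in 9 of 24 alternatives for *Ube3c*, 16 of 24 for *Psmb9*, 6 of 24 for *Psma7*, 13 of 24 for *Psmd8* and 22 of 24 for *Psme2*. It held in 23 of 24 for *Isg15*, which missed the threshold with the replicate block (FDR 0.0705). For *Nlrc5* the difference was 1.13 with a pseudocount of 0.1.

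Single mice far from the rest of their group were sought in 66 sets of 4 or more mice, 1 for each named gene and most abundant marker in WO and MO, where chance gives about 3.3. The 2 found are fewer than that, but the count takes no account of how far a mouse lay from its group. *Psmc2* in WO2 was at 6.03, while the nearest WO mouse was at 6.19 and the highest at 6.24. *Mbp* in WO4 was at 5.36, while the nearest WO mouse was at 12.42 and the highest at 14.22.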

How the results depend on the processing

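The count of members past an FDR of 0.05 and 1.5-fold was 1 (*Psme1*) in every setting tried for MY vs. MO and WO vs. MO. It was 0 in every setting for WY vs. WO and WY vs. MY in limma's test, as was the count past the FDR alone, with 0 to 4 and 0 to 12 members at an unadjusted p under 0.05, both highest without WY2. The count past the FDR alone moved more. In MY vs. MO it was 6, and 3 with a pseudocount of 0.1, 3 with median centring, 3 with the length trend removed and 2 with the replicate block. Leaving out 1 mouse gave 2 to 9, with the lowest counts without MY1 (2), MY2 (3) or MY3 (2). Over all genes, 2377 were higher and 2269 lower in MO. These became 2259 and 1862 with a pseudocount of 0.1, 1951 and 2963 with median centring, and 2295 and 1830 with the length trend removed. With the replicate block they were 2055 and 1691. Without MY1, MY2 and MY3 they were 1454 and 1132, 1660 and 1403, and 1511 and 1162. In WO vs. MO the count of members was 4, and 2 with median centring, 1 with batch 1 only and 2 with the replicate block. With 1 mouse left out it was 3 to 5. Over all genes, 2730 were higher and 2345 lower in MO. These became 2161 and 3418 with median centring, 1548 and 1064 with batch 1 only, and 2319 and 1796 with the replicate block. For the difference between genotypes the count of members was 4. It was 2 with a pseudocount of 0.1, 2 with median centring, 2 with the length trend removed, 1 with batch 1 only and 1 with the replicate block. Leaving out 1 mouse gave 2 to 6, with 2 without each of MY1, MY2, MY3, WO4, WY1 and WY3. Over all genes, 1903 passed with a positive and 1307 with a negative difference. These became 1800 and 1083 with a pseudocount of 0.1, 1612 and 1855 with median centring, and 1894 and 1129 with the length trend removed. They were 1457 and 791 with batch 1 only and 1366 and 631 with the replicate block. Without each of those 6 mice they were 1453 to 1695 and 760 to 1074. Batch 1 only and the left-out mice reduce the number of mice; for the other settings the cause was not tested.

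*Psme1* passed in 17 of 17 alternatives of MY vs. MO (0.64 to 0.79, FDR 3.6e-06 to 0.00355) and 19 of 19 of WO vs. MO (0.62 to 0.72, FDR 1.1e-06 to 0.00416). *Psme2* passed in 16 of 17 and 18 of 19, and *Psmd8* in 15 of 17 and 16 of 19. *Psmd4* passed in 8 of 17 and 6 of 19, *Psmb4* in 5 of 17 and *Psmb6* in 4 of 17 of MY vs. MO. For the difference between genotypes *Psme1* passed in 24 of 24, *Psme2* in 22, *Psmd8* in 13 and *Psma7* in 6. Among values of named genes that had passed, the 1 that changed sign was *Ubb* in MY vs. MO, at -0.020 (FDR 0.882) with quantile normalization, and the cause was not tested. Values that had not passed changed sign in 109 alternatives. Of 965 alternatives for values that had passed, 138 no longer passed. Of all 2425 alternatives for named genes, 20 came to pass the threshold and 15 moved by more than the spread. In MY vs. MO *Adrm1* passed in 13, *Isg15* in 15, *Ubb* in 7 and *Ubqln4* in 6 of 17.

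The replicate block treats mice with the same number as pairs. Correlations between such mice, after group means were removed, were 0.0853 to 0.177 in MY vs. MO and -0.207 to 0.0913 in WO vs. MO. They were -0.129 to 0.377 in WY vs. WO and -0.2 to -0.0194 in WY vs. MY, so the numbers did not act as pairs in every comparison.

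All young mice belonged to batch 1, so batch 2 cannot be told apart from age in the comparisons with young mice other than within batch 1. Old wild-type mice of batch 2 were older than all mutant mice. Groups of 3 and 5 mice and 1 line per genotype limit the precision and reach of every value, and read depth per gene is unknown. Reads shared between a gene and its processed pseudogenes or paralogs were not examined.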
